A study of Mus musculus with 9 samples.

Results

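The genes described here are the 2 brain corticosteroid receptors and 8 genes that glucocorticoids are known to induce. They are Nr3c1, the glucocorticoid receptor, Nr3c2, the mineralocorticoid receptor, and Fkbp5, Sgk1, Tsc22d3, Zbtb16, Sult1a1, Cdkn1a, Plin4 and Ddit4. They were chosen by gene symbol from a list and make up 10 of the 54532 genes in the count table. All 10 passed the filter on low counts and were among the 19782 genes tested.

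Adrenal glucocorticoids, in mice mainly corticosterone, enter the brain and bind 2 related nuclear receptors. The mineralocorticoid receptor binds corticosterone with high affinity and is abundant in the hippocampus, whereas the glucocorticoid receptor is occupied mainly when the hormone rises with stress or at the daily peak. The bound receptor leaves its chaperone complex, moves to the nucleus and acts on glucocorticoid response elements, paired copies of a short sequence near genes such as Fkbp5, Sgk1 and Tsc22d3.

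The study asked which hippocampal transcripts differ after silencing of miR-134, a brain microRNA, in a mouse model of Angelman syndrome that is susceptible to sound-induced seizures. All 9 mice were N4 Ube3a m-/p+ animals, which inherit the mutated Ube3a allele from the mother, on a background backcrossed to 129Sv/Ev. On postnatal day 21 each received 0.5 nmol of oligonucleotide into a cerebral ventricle, either Ant-134, a locked nucleic acid inhibitor of miR-134 (n = 5), or Scr, a scrambled control (n = 4). Each mouse then underwent audiogenic tests on days 22, 24 and 26, and 1 ipsilateral hippocampus per mouse was taken 24 h after the last test for poly-A RNA-seq. The groups thus shared the mutation, the surgery and the test schedule. Neither wild-type nor uninjected mice, nor mice without audiogenic tests, entered this comparison. In the paper Ant-134 reduced the severity of audiogenic seizures and tended to improve survival, so seizure load may have differed between the groups. Seizure scores of these 9 mice were not used here, and the part of seizure load in the values below was not tested. Corticosterone was not measured in these files, and the sex of the mice is not given in the labels. Y-linked genes summed to 0.35 to 1.21 CPM in Ant-134 replicates 1 and 4 and Scr replicate 3, and to 177.7 to 197.6 CPM in the other 6 mice. Levels in bulk tissue cannot tell fewer cells of a type from less RNA per cell.

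Between 28583298 and 38431058 reads were counted on genes per Ant-134 library and between 31985959 and 41978113 per Scr library. Marker genes of the hippocampus were present in all libraries, with summed levels of 190.9 to 212.9 CPM (counts scaled to a common library size) in the Ant-134 group and 169.4 to 223.0 CPM in the Scr group for dentate granule cells. Choroid plexus markers ranged from 66.9 to 2564 CPM and from 79.1 to 2021 CPM in these groups. Erythrocyte markers ranged from 69.0 to 403.1 CPM and from 44.0 to 91.7 CPM. All 6 microglial markers had lower fitted levels after Ant-134, 3 of them at an unadjusted p below 0.05. Their sums were 236.5 to 288.3 CPM after Ant-134 and 290.0 to 333.6 CPM after Scr. Of all genes tested, 2.69% were lower at that threshold and 51.2% had a fitted level above Scr. All 7 endothelial and all 7 mural cell markers also had lower fitted levels, with 1 of each list at an unadjusted p below 0.05. Endothelial sums were 167.2 to 211.7 CPM after Ant-134 and 170.2 to 251.9 CPM after Scr. Mural cell sums were 153.7 to 186.6 CPM and 162.5 to 227.2 CPM, and Scr replicate 2 was the highest mouse for both lists. The part of these marker lists in the values below was not tested.

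The sequences are given first, since the receptors act through a short DNA element and Ant-134 through the microRNA that it inhibits. RefSeq promoter windows of GRCm38.p6, covering 250 bases before to 50 bases after an annotated start, matched 8 of the 10 genes, all but Nr3c1 and Zbtb16, in 16 windows. An exact palindromic form of the response element, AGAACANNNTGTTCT, here called the full element, was searched on both strands. It was present in 3 of the 32851 windows of the genome, or 0.00913%. One of these 3 windows belongs to Sgk1, a serum- and glucocorticoid-regulated kinase that acts on ion channels and transporters, and its match lies at chr10:21993701-21993715, starting 189 bases before that start. A single copy, AGAACA or TGTTCT, was in 5 of the 16 windows of these genes, or 31.2%, and in 19.0% of all windows. These 5 windows belong to 3 genes, Sgk1, Sult1a1 and Tsc22d3, and Sgk1 alone has 6 of the 16 windows and 3 of these 5. The single copies include those within a full element. Such a match is a description of letters, not a binding site shown by these data. Other forms of the element, and sequence outside these windows, were not searched. The windows below are shown because they hold the full element (Sgk1) or single copies (Sult1a1, Tsc22d3), or because the gene is a widely used glucocorticoid marker without a match in this window (Fkbp5). Matched bases are in capitals. The windows are chr10:21993640-21993939 on the plus strand for Sgk1, and on the minus strand chr7:126676369-126676668 for Sult1a1, chrX:140600473-140600772 for Tsc22d3 and chr17:28486100-28486399 for Fkbp5.
Sgk1 promoter: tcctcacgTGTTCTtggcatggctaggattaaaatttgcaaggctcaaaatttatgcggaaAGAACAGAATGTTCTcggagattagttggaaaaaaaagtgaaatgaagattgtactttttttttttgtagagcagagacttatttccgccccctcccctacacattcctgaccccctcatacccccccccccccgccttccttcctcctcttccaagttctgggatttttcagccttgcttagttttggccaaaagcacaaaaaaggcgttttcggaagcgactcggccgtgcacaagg
Sult1a1 promoter: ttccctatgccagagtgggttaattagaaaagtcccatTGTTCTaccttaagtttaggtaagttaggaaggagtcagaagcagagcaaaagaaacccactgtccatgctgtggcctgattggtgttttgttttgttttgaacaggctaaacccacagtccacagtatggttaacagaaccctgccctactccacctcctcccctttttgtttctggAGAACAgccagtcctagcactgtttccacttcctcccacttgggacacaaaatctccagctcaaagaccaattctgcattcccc
Tsc22d3 promoter: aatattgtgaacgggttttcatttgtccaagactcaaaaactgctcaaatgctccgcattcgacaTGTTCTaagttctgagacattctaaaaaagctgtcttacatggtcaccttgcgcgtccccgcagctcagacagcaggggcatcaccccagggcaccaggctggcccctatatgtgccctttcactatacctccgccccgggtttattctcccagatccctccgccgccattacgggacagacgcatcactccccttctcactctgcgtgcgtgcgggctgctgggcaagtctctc
Fkbp5 promoter: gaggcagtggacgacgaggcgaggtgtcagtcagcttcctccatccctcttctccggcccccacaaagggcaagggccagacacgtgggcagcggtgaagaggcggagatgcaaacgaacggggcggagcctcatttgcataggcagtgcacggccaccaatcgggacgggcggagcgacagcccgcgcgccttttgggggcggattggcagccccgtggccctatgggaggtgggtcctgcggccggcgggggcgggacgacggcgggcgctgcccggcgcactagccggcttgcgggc

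The microRNA that was inhibited is encoded at chr12:109734145-109734166 on the plus strand of GRCm38.p6. Its mature sequence from RefSeq is given with the seed, bases 2 to 8, in capitals. A site was counted where the longest 3′ UTR of a coding transcript in GENCODE M21 held CAGTCAC or AGTCACA, the complement of the seed or of bases 1 to 7 with an A opposite base 1. Of these 10 genes, 3 held a site (Sult1a1, Cdkn1a and Ddit4), against 2971 of 15274 tested genes, or 19.45%. The sites start at base 66 of the UTR in Sult1a1, 508 in Cdkn1a and 258 in Ddit4, and are shown within 30 bases with the matched bases in capitals. In Cdkn1a the match spans 8 bases. None of these 3 genes passed the reported test between the groups, as described below. Sult1a1 had an unadjusted p below 0.05 in 5 of 19 other fits, with a lowest adjusted p of 0.832 over those fits.
mmu-miR-134-5p: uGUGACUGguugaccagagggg
Sult1a1 site: aaaatcttcatAGTCACAagggtcctctcc
Cdkn1a site: tgacagtgaagCAGTCACAgcctagaacag
Ddit4 site: aaaggcttaggAGTCACAcaggcttctggc

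Of the 10 genes, 0 passed an unadjusted p below 0.05 between Ant-134 and Scr in edgeR's quasi-likelihood test. Over all genes tested this share was 4.18%, of which 1.49% were higher and 2.69% lower after Ant-134. After Benjamini-Hochberg adjustment the share was 0% over all genes in edgeR, where 16 genes passed in DESeq2 without a filter, none of them among the 10, and the adjusted p of each of the 10 genes in edgeR was 0.998. The CPM ranges of the groups overlapped for all 10, whereas they did not overlap for 1.54% of all genes. In DESeq2 without a filter, 2 of the 10, Sult1a1 and Plin4, had an unadjusted p below 0.05, where the share over its 37435 genes was 2.74%. In edgeR's fit 9 of the 10 log2 fold changes were above 0, including all 8 induced genes, against 51.2% of all genes, and the median was 0.08 against 0.0026 over all genes. Without Scr replicate 4 this median was 0.14. Without Scr replicate 1 it was 0.05, and 6 of the 8 induced genes were above 0. Fitted levels were also above Scr for all 10 activity-regulated genes, which rise after neuronal firing (median log2 fold change 0.16, 0 called), for all 6 neuronal markers (median 0.07, 1 called) and for all 5 erythrocyte markers (median 1.01, 0 called). Without Ant-134 replicate 5 the count of activity-regulated genes above Scr was 5 of 10, with a median of -0.00025, and without Ant-134 replicate 3 the median of the erythrocyte markers was 0.23 and 4 of the 6 neuronal markers were above Scr. The part of these lists in the direction of the induced genes was not tested.

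**Figure D1:**
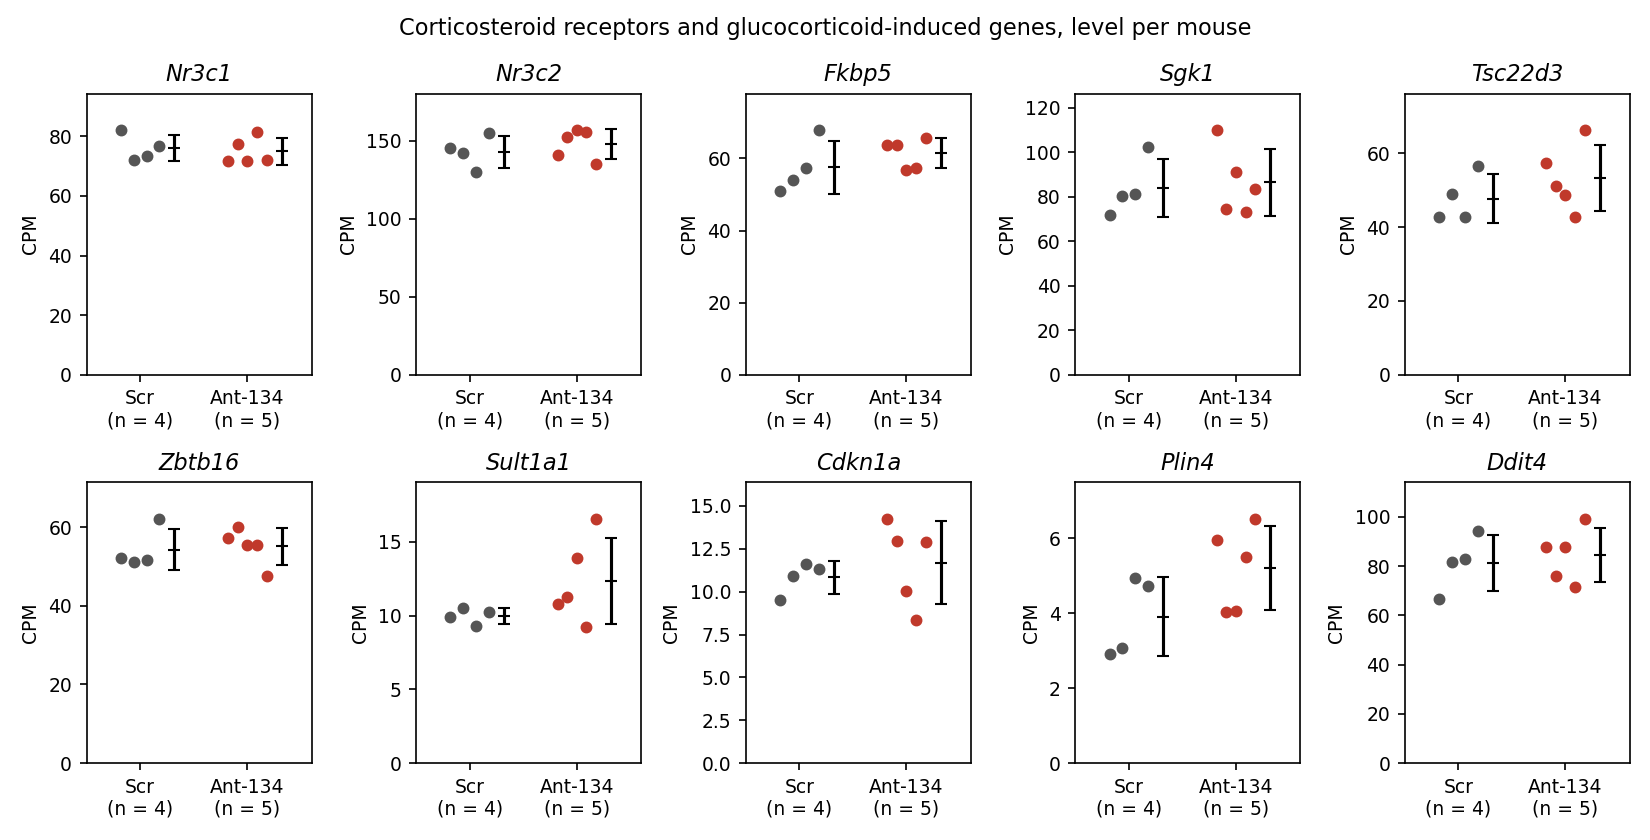
Level of each gene in CPM (y axis, from 0) in each mouse, with Scr in grey (n = 4) and Ant-134 in red (n = 5), and the mean and SD as bars. The ranges of the groups overlap in all 10 panels. Plin4 and Sult1a1 have the widest relative range, from 2.9 to 6.5 CPM and from 9.2 to 16.6 CPM.

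Of the receptors, Nr3c1 (ENSMUSG00000024431, GRCm38 chromosome 18, 39410545 to 39491301) was at 71.7, 77.5, 71.8, 81.5 and 72.2 CPM in Ant-134 mice 1 to 5. In Scr mice 1 to 4 it was at 82.1, 72.1, 73.4 and 76.8 CPM. The groups lay within the same narrow range, with means of 74.9 ± 4.41 CPM (SD, n = 5) and 76.1 ± 4.46 CPM (SD, n = 4). The log2 fold change was -0.02 (SE 0.053, 95% confidence interval -0.13 to 0.091), and the two-sided exact permutation test over the 126 splits of the mice gave p = 0.683. Without Scr replicate 1 it was 0.01, and without Ant-134 replicate 4 it was -0.05. The interval corresponds to folds between 0.911 and 1.07. Nr3c1 was the steadiest of the 10 genes, with a highest level 1.14 times the lowest.

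Nr3c2 (ENSMUSG00000031618, chromosome 8, 76899442 to 77245012) was at 140.7, 152.3, 156.8, 155.9 and 135.1 CPM after Ant-134 and at 145.6, 142.2, 129.9 and 154.7 CPM after Scr. The ranges overlapped almost fully, with a mean of 148.1 ± 9.71 CPM (SD, n = 5) against 143.1 ± 10.3 CPM (SD, n = 4). The log2 fold change was 0.05 (SE 0.058, 95% confidence interval -0.074 to 0.17; exact permutation p = 0.460), and it was 0.0064 without Scr replicate 3 and 0.09 without Scr replicate 4. Its exons overlap those of Gm10649 on the opposite strand, a gene at 2.40 to 3.96 CPM whose log2 fold change was 0.35 (SE 0.14, adjusted p of 0.998 in edgeR). Since strand use in the counting is not stated, reads of such a pair cannot be told apart. Levels of the receptors can be compared per length as FPKM. The ratio of Nr3c2 to Nr3c1 in FPKM was 2.27 ± 0.139 in the Ant-134 group (SD, n = 5) and 2.16 ± 0.148 in the Scr group (SD, n = 4). In every mouse the mineralocorticoid receptor transcript was the more abundant, at 2.03 to 2.51 times the glucocorticoid receptor transcript. The ratio did not differ between the groups beyond the spread between mice (exact permutation p = 0.286).

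Per length, Ddit4 had the highest level of the 10 genes at 46.9 FPKM over all mice, followed by Nr3c2 at 22.3 and Sgk1 at 17.2 FPKM. The range of Ddit4, from 37.7 to 56.2 FPKM, lay above that of Nr3c2, from 19.8 to 24.0 FPKM. Next came Tsc22d3 at 11.6, Zbtb16 at 10.3, Nr3c1 at 10.1, Sult1a1 at 7.43 and Fkbp5 at 6.25 FPKM. From Nr3c2 down to Fkbp5 the range of each gene overlapped that of the next. Cdkn1a at 3.15 FPKM (2.32 to 3.99) and Plin4 at 0.794 FPKM (0.501 to 1.12) each lay apart from their neighbours in this order.

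Fkbp5 (ENSMUSG00000024222, chromosome 17, 28399094 to 28517527) encodes a co-chaperone that lowers the hormone affinity of the receptor and is induced by it in turn. Its levels were 63.9, 63.8, 56.9, 57.4 and 65.6 CPM after Ant-134, and 51.1, 54.0, 57.3 and 67.9 CPM after Scr. The single highest mouse was Scr replicate 4, above all Ant-134 mice, and the lowest were Scr replicates 1 and 2. Ant-134 exceeded Scr by a log2 fold change of 0.10 (SE 0.076, 95% confidence interval -0.068 to 0.26; exact permutation p = 0.286). Without Scr replicate 4 it was 0.19, with an unadjusted p below 0.05 and an adjusted p of 0.958 in edgeR, whereas without Scr replicate 1 it was 0.04.

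Sgk1 (ENSMUSG00000019970, chromosome 10, 21882184 to 21999903), which held the full response element in 1 of its 6 windows, was at 109.9, 74.6, 90.9, 73.2 and 83.6 CPM after Ant-134. In the Scr mice it was at 71.6, 80.2, 81.2 and 102.5 CPM. Each group had 1 mouse above 100 CPM, Ant-134 replicate 1 and Scr replicate 4, and the ranges overlapped nearly completely. The log2 fold change was 0.04 (SE 0.15, 95% confidence interval -0.29 to 0.38; exact permutation p = 0.794), and it was -0.06 without Ant-134 replicate 1 and -0.03 without Scr replicate 1.

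Tsc22d3 (ENSMUSG00000031431, chromosome X, 140539528 to 140600659) encodes GILZ, a leucine zipper protein that carries part of the anti-inflammatory action of glucocorticoids. Its levels were 57.5, 51.2, 48.7, 42.7 and 66.3 CPM after Ant-134 and 42.8, 48.8, 42.8 and 56.6 CPM after Scr. The lowest mice of both groups were near 43 CPM, and the highest was Ant-134 replicate 5. This gave a log2 fold change of 0.16 (SE 0.13, 95% confidence interval -0.14 to 0.46; exact permutation p = 0.317), and it was 0.07 without Ant-134 replicate 5 and 0.25 without Scr replicate 4.

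Zbtb16 (ENSMUSG00000066687, chromosome 9, 48654297 to 48836222) encodes PLZF, a transcriptional repressor of the zinc finger family. It was at 57.1, 60.0, 55.4, 55.4 and 47.6 CPM after Ant-134 and at 52.2, 51.1, 51.7 and 62.1 CPM after Scr. Scr replicate 4 stood apart from the other Scr mice, and Ant-134 replicate 5, which had the highest Tsc22d3, had the lowest Zbtb16. The log2 fold change was 0.02 (SE 0.072, 95% confidence interval -0.13 to 0.18; exact permutation p = 0.833), and it was below 0 without Ant-134 replicate 2, Scr replicate 2 or Scr replicate 3.

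Sult1a1 (ENSMUSG00000030711, chromosome 7, 126672865 to 126676432) encodes a sulfotransferase of phenols, including catecholamines. Its levels were 10.8, 11.3, 13.9, 9.2 and 16.6 CPM after Ant-134, and 9.9, 10.5, 9.3 and 10.3 CPM after Scr. The Scr mice were close together, and 4 of the 5 Ant-134 mice were above all of them, while Ant-134 replicate 4 was the lowest of the 9. This gave a log2 fold change of 0.30 (SE 0.14, 95% confidence interval -0.0059 to 0.61), with an adjusted p of 0.998 in edgeR and an exact permutation p of 0.175. In edgeR its unadjusted p was below 0.05 without Ant-134 replicate 1 or 4, where the log2 fold change was 0.35 and 0.39, and the adjusted p was 0.985 and 0.989. Without Ant-134 replicate 5, the mouse with the highest level, the log2 fold change was 0.17, and with the replicate number as a block and this mouse left out it was 0.16, both above an unadjusted p of 0.05. With the Y-linked level as a covariate it was 0.33 and with no filter 0.30, both below that threshold, with adjusted p values of 0.982 and 0.832 in edgeR. Exons of Sult1a1 overlap those of Sgf29 on the opposite strand, a gene at 9.23 to 11.6 CPM, with the same limit as for Nr3c2.

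Plin4 (ENSMUSG00000002831, chromosome 17, 56100591 to 56109803) encodes a perilipin of lipid droplets, and was the lowest of the 10 genes, at 93 to 197 counts per library. Its levels were 5.9, 4.0, 4.1, 5.5 and 6.5 CPM after Ant-134 and 2.9, 3.1, 4.9 and 4.7 CPM after Scr. Of the Ant-134 mice, 3 were above all Scr mice and the other 2 lay within the Scr range. Its log2 fold change was 0.42 (SE 0.20, 95% confidence interval -0.0077 to 0.84), the largest of the 10, with an adjusted p of 0.998 in edgeR and an exact permutation p of 0.111. In edgeR its unadjusted p was below 0.05 without Ant-134 replicate 2 or 3, or Scr replicate 3 or 4, with log2 fold changes of 0.50, 0.49, 0.55 and 0.52, and the adjusted p was between 0.958 and 1.00. Without Scr replicate 1 or 2 or Ant-134 replicate 5 it was lower, at 0.30, 0.31 and 0.32, and not past that threshold. With no filter it was 0.41, past the threshold, with an adjusted p of 0.832 in edgeR. Plin4 overlaps exons of Hdgfl2 on the opposite strand, a gene at 107.2 to 119.8 CPM, again with that limit.

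Cdkn1a (ENSMUSG00000023067, chromosome 17, 29090976 to 29100727) encodes p21, an inhibitor of cyclin-dependent kinases that is also induced by p53. It was at 14.3, 13.0, 10.04, 8.4 and 12.9 CPM after Ant-134 and at 9.5, 10.9, 11.6 and 11.3 CPM after Scr. The Ant-134 mice lay on both sides of the Scr range, with 3 above it and 1 below it. Its log2 fold change was 0.11 (SE 0.14, 95% confidence interval -0.18 to 0.41; exact permutation p = 0.611), and leaving out Ant-134 replicate 1 or 4 gave 0.03 and 0.21. Cdkn1a overlaps exons of AC167363.2 on the opposite strand, a gene at 0.031 to 0.20 CPM.

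Ddit4 (ENSMUSG00000020108, chromosome 10, 59949669 to 59951834) encodes REDD1, a stress-induced inhibitor of the growth-promoting kinase complex mTORC1. Its levels were 87.9, 75.9, 87.9, 71.6 and 99.3 CPM after Ant-134 and 66.6, 81.5, 83.0 and 94.2 CPM after Scr. The lowest mouse was Scr replicate 1 and the highest Ant-134 replicate 5, with the others intermixed. The log2 fold change was 0.05 (SE 0.12, 95% confidence interval -0.21 to 0.32; exact permutation p = 0.706), and it was -0.03 without Scr replicate 1 and -0.01 without Ant-134 replicate 5.

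**Figure D2:**
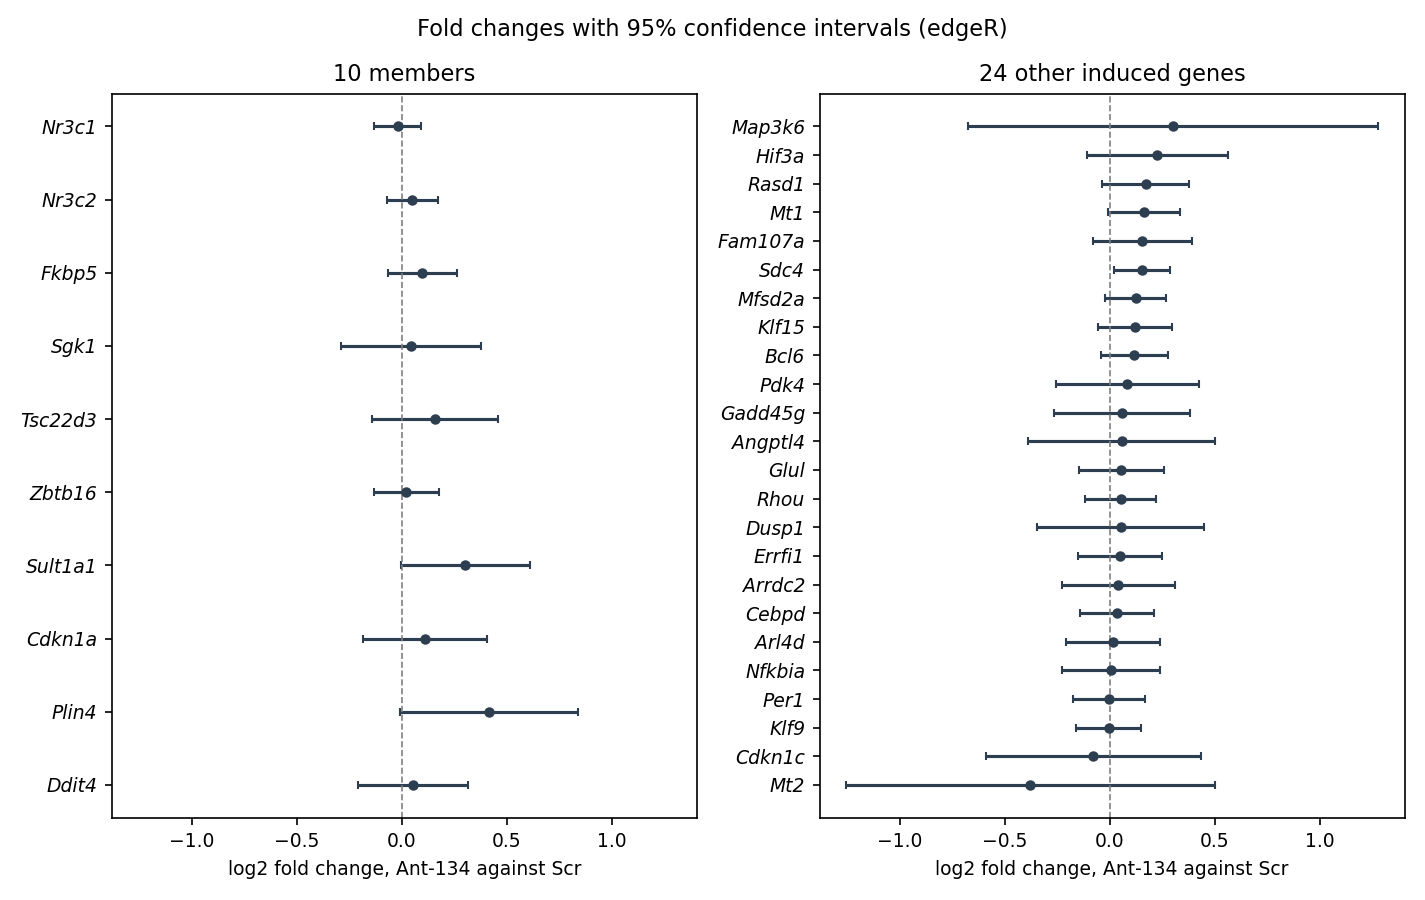
Log2 fold changes of Ant-134 against Scr (x axis) with 95% confidence intervals from edgeR's fit, for the 10 genes (left) and 24 other glucocorticoid-induced genes (right). The intervals of all 10 genes on the left include 0, with Plin4 (-0.0077 to 0.84) and Sult1a1 (-0.0059 to 0.61) closest to excluding it, and on the right the interval of Sdc4 does not.

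The other genes of the pathway were taken from 5 lists, and 49 of their 51 genes were tested. Of these, 38 had a log2 fold change above 0 (77.6%, against 51.2% of all genes), with a median of 0.05, and 1 had an unadjusted p below 0.05, where the share over all genes was 4.18%. The number above 0 was 31 without Ant-134 replicate 5, 30 with the replicate block and 34 of the 50 tested without Scr replicate 1. The gene with the unadjusted p was Sdc4, a heparan sulfate proteoglycan of the cell surface, at 43.6, 43.5, 39.3, 36.6 and 44.1 CPM after Ant-134 and 36.3, 37.5, 39.5 and 35.6 CPM after Scr. The ranges overlapped, and its log2 fold change was 0.15 (SE 0.063, 95% confidence interval 0.020 to 0.29), with an adjusted p of 0.998 in edgeR and an exact permutation p of 0.0714. In edgeR its unadjusted p was above 0.05 without Ant-134 replicate 1, 2 or 5 or Scr replicate 1 or 4, with log2 fold changes of 0.13, 0.14, 0.13, 0.14 and 0.13, and with the replicate block, at 0.13.

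Of the 8 receptor chaperones, 7 had fitted levels above Scr and 0 passed the test in edgeR, with log2 fold changes from -0.03 to 0.10. Hsp90ab1 had an unadjusted p below 0.05 in DESeq2. In other edgeR fits, Hsp90aa1, Hsp90ab1 and Stip1 had one without Scr replicate 4. So did Stip1 without Ant-134 replicate 3 and Hsp90aa1 with the replicate block. The shares over all genes in these 3 edgeR fits were 4.84%, 4.24% and 4.12%. Hsp90ab1, an HSP90 subunit of the complex that holds the receptor in its hormone-binding form, was at 1689 ± 37.4 CPM after Ant-134 (SD, n = 5) and 1611 ± 54.7 CPM after Scr (SD, n = 4). Stip1, which passes the receptor from HSP70 to HSP90, was at 146.9 ± 6.50 and 138.2 ± 6.77 CPM in these groups. Of the genes of corticosterone metabolism, 4 of 5 were tested and 0 passed. Hsd11b1, which regenerates corticosterone inside cells, was at 23.2 ± 3.17 CPM after Ant-134 (SD, n = 5) and 22.8 ± 3.80 CPM after Scr (SD, n = 4). Hsd11b2, which inactivates corticosterone, had 3 to 13 counts per library and was not tested.

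Of the 9 receptor coregulators, which include the coactivator Ncoa1 and the corepressor Ncor1, 7 had fitted levels above Scr and 0 passed, with log2 fold changes from -0.04 to 0.12. Nrip1, with the highest of these, had an unadjusted p below 0.05 in edgeR without Scr replicate 1, where the share over all genes was 3.79%. Of the corticotropin-releasing hormone system, 4 of 5 genes were tested and 0 passed, while Ucn had 0 to 3 counts per library. Crh itself was at 2.42 ± 0.862 CPM after Ant-134 (SD, n = 5) and 2.31 ± 0.366 CPM after Scr (SD, n = 4). Of the 24 other glucocorticoid-induced genes, 20 had fitted levels above Scr and 1, Sdc4, passed, with a median log2 fold change of 0.06. Without Ant-134 replicate 5 this was 13 of 24, without Scr replicate 1 it was 14, and with the replicate block, which also leaves out Ant-134 replicate 5, it was 12, with a median of -0.01. Mt1, a metal-binding metallothionein, was at 373.0 ± 40.2 and 332.9 ± 26.2 CPM in these groups, and had an unadjusted p below 0.05 in DESeq2. In edgeR it did so only with the replicate block and without Ant-134 replicate 2 or Scr replicate 3, at log2 fold changes of 0.12, 0.22 and 0.22, among the edgeR fits run. Per1, a clock gene with a known response element, was at 88.1 ± 9.09 and 88.2 ± 8.29 CPM.

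Several of these genes varied more between mice than most genes of like abundance. The within-group SD of log2 CPM of Sgk1 was at percentile 98.1 among genes with a mean CPM within 2-fold of its own, that of Ddit4 at 97.0 and that of Tsc22d3 at 96.3. The other induced genes were between percentiles 85.0 and 88.9, Nr3c2 was at 77.2 and Nr3c1 at 57.5. The biological coefficient of variation estimated by edgeR was 15.0% for Sgk1, 13.9% for Tsc22d3 and 12.2% for Ddit4, where the trend for genes of their abundance was 7.39%, 8.20% and 7.40%. For Nr3c1 it was 6.53%, below its trend of 7.44%.

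**Figure D3:**
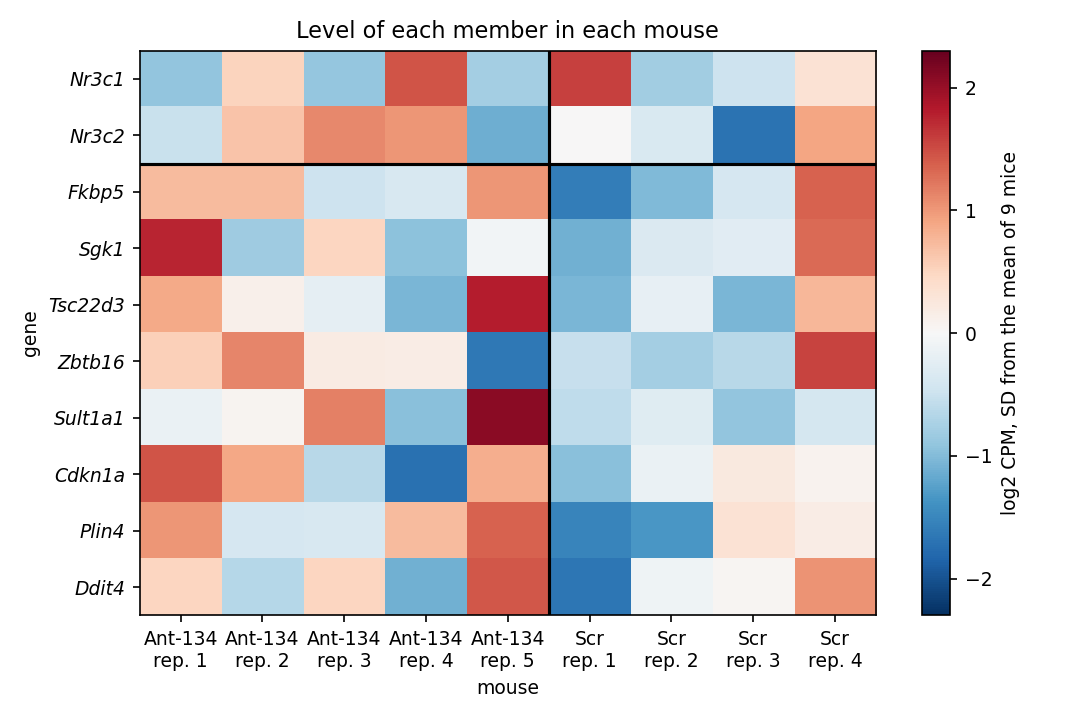
Level of each gene (rows) in each mouse (columns) as log2 CPM, in SD from the mean of the 9 mice, red above and blue below, with lines between receptors and induced genes and between Ant-134 and Scr. Scr replicates 1 and 2 are below the mean for all 8 induced genes, and Scr replicate 4 and Ant-134 replicates 1 and 5 are mostly red.

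The levels of the genes were then compared across the mice. Scr replicate 1 had the lowest level of 4 of the 10 genes and the highest of Nr3c1, whereas Ant-134 replicate 5 had the highest level of 4 and Ant-134 replicate 1 and Scr replicate 4 the highest of 2 each. Over the 28 pairs of induced genes, 24 correlations of log2 CPM over the 9 mice were positive, with a median Pearson r of 0.53, and of 0.49 on deviations from the group means. Over the 17 pairs with a receptor, 4 were positive and the median was -0.25, but 0.08 without the 2 mice farthest from the median of the first gene. Of all 45 pairs, 9 had an unadjusted exact permutation p below 0.05 and 0 had an adjusted one, the smallest being 0.215 by Pearson and 0.138 by Spearman. On deviations from the group means 7 pairs had an unadjusted p below 0.05, and without those 2 mice 2 pairs had one. Pairs of other genes were not examined in this way.

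The pair with the highest r was Tsc22d3 and Ddit4, with a Pearson r of 0.811 (exact permutation p = 0.00871, adjusted p = 0.215) and a Spearman rho of 0.750 (exact permutation p = 0.0255, adjusted p = 0.276). Without the 2 mice farthest from the median of Tsc22d3, Ant-134 replicates 1 and 5, r was 0.698. Sgk1 and Ddit4 had an r of 0.722 (exact permutation p = 0.0288, adjusted p = 0.215) and a rho of 0.883 (exact permutation p = 0.00308, adjusted p = 0.138), and r was 0.837 without Ant-134 replicate 1 and Scr replicate 4. For Nr3c1 and Ddit4, r was -0.763 (exact permutation p = 0.0184, adjusted p = 0.215) and rho was -0.650 (exact permutation p = 0.0666, adjusted p = 0.311). That relation rested on Ant-134 replicate 4 and Scr replicate 1, without which r was -0.292.

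To summarise the induced genes, the log2 CPM of each of the 8 induced genes was standardised over the 9 mice and averaged per mouse. This mean was 0.84, 0.13, 0.078, -0.66 and 0.85 SD in Ant-134 replicates 1 to 5, and -1.12, -0.52, -0.33 and 0.73 SD in Scr replicates 1 to 4. Both groups thus held mice on both sides of 0, and the group ranges overlapped. Among the 24 other glucocorticoid-induced genes, which did not enter the mean, 22 had a positive r with it and 16 an r above 0.5, or 66.67%. Among 15889 genes outside all lists with a mean of at least 1 CPM, 50.88% had a positive r and 11.38% an r above 0.5. On deviations from the group means the shares above 0.5 were 58.33% and 12.23%, and leaving out each mouse in turn gave 13 to 17 of the 24 genes, the lowest without Ant-134 replicate 5. The r values come from the same 9 libraries and are given as a description. The lists were chosen with earlier results of these data known, and the 15889 genes were not matched to the 24 for spread between mice.

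Of the 24 genes, those with the highest r, named after their values were seen, were Nfkbia, an inhibitor of NF-kappa-B, with r = 0.787, Map3k6, a stress-activated kinase, with 0.783, Per1 with 0.782, and Klf15, a Kruppel-like transcription factor, with 0.773. Klf9, another Kruppel-like factor induced by glucocorticoids, had the lowest at -0.107. Of the genes outside all lists, the 5 closest to the mean of the induced genes over the 9 mice were Psmc5 (r = 0.956), a proteasome ATPase, Tcim (0.951), Rpp30 (0.942), a subunit of ribonuclease P, Pja1 (0.931), a ubiquitin ligase, and Tsr2 (0.927). They are the highest of 15889 searched.

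**Figure D4:**
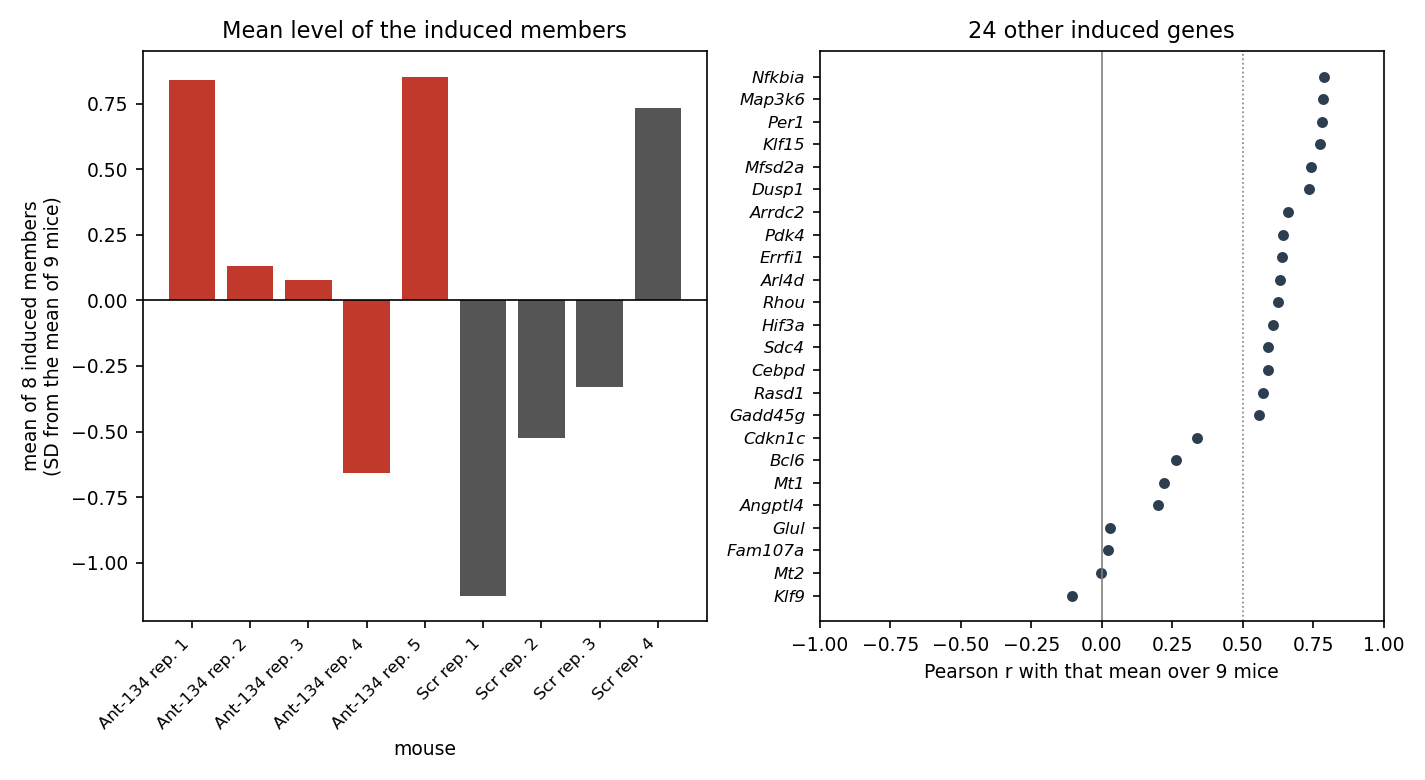
Left, mean of the 8 induced genes per mouse, in SD from the mean of the 9 mice, with Ant-134 in red and Scr in grey. Right, Pearson r over the 9 mice of each of 24 other glucocorticoid-induced genes with that mean, where the solid line is 0 and the dotted line 0.5, and 16 genes lie to the right of the dotted line.

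The mean of the induced genes also moved with other measures of the same libraries. Its r with the level of mural cell markers was -0.755, with microglial markers -0.717 and with endothelial markers -0.643, and it was -0.737, -0.279 and -0.608 without the 2 mice farthest from the median of the mean. Its r with the 10 activity-regulated genes was 0.585, and with the receptor chaperones 0.630, and these were 0.383 and 0.441 without those 2 mice. With oligodendrocyte markers r was 0.044, but 0.813 without them. It was 0.041 with choroid plexus markers and -0.157 with the total counts of the libraries. The activity-regulated genes summed to 439.4 to 637.6 CPM after Ant-134 and 384.8 to 486.5 CPM after Scr, highest in Ant-134 replicate 5, and 0 of the 10 passed the test. The part of the cell type markers and of neuronal activity in the levels of the induced genes was not tested.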

How the data were processed

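RNA-seq of 1 hippocampus from each of 9 mice was analysed, 5 given Ant-134 and 4 given Scr, and groups and replicate numbers were taken from the sample labels. Clean reads had been mapped to GRCm38 with HISAT2 2.0.5 and counted per gene with featureCounts 1.5.0-p3, and the authors deposited the counts without normalization. The authors also deposited FPKM values, which correct the counts for the length of the gene and the size of the library and were used here for levels between genes. Strand use in the counting is not given in the sources used here, so reads of genes that overlap on opposite strands cannot be told apart.

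Ant-134 was compared with Scr on these counts by the robust quasi-likelihood test of edgeR 4.0.16 (R 4.3.3), without covariates, after TMM scaling and removal of low genes with filterByExpr (minimum count 10). The p values were adjusted by Benjamini-Hochberg over the 19782 genes tested, and a gene counted as called at an unadjusted p below 0.05. Levels are CPM of the TMM-scaled libraries. Single genes were compared by two-sided exact permutation over 126 splits of the mice, for which the smallest p is 0.00794. Totals were 28583298 to 41978113 counts per library. The scripts were tested on simulated data. Chi-square values of 8.37 to 20.6 per gene showed that every pair of libraries in a group differed by more than counting noise.

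Alternatives comprised unfiltered DESeq2 1.42.0, and edgeR with the size factors of DESeq2, with no filter, with 10 or more counts required in each library, with non-robust estimation, with a replicate block, with Y-linked genes as a covariate and with each mouse left out. On FPKM, limma 3.58.1 was run on log2(FPKM + 1) and log2(FPKM + 0.1) where the mean reached 0.1, and on log2(FPKM + 1) of all detected genes. Such fold changes understate the change of low genes. For the mean of the induced genes, deviations from group means and leaving out each mouse were added after the data were seen. The genes named are the 10 genes, genes of the pathway lists with an unadjusted p below 0.05, and the 5 genes outside all lists closest to the mean of the induced genes, with others given as examples of their list. The genes and lists were chosen with earlier results of these data known. Promoters and miR-134 came from RefSeq (GRCm38.p6), and positions and 3′ UTRs from GENCODE M21.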

Additional observations from a re-analysis of the deposited data

Results flagged for a closer look

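The Zbtb16 level in Scr replicate 4, 62.1 CPM, stood apart from the other 3 Scr mice, of which the nearest was at 52.2 CPM. Its gap was 0.903 of the range of the group, above Dixon's 95% critical value of 0.829 for 4 samples. The 10 genes were examined in both groups, 20 sets of values in all, and chance gives about 1 such value in 20.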

How the results depend on the processing

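Over 190 refits of the 10 genes, 169 kept the direction and the side of the threshold, 12 newly passed an unadjusted p below 0.05 (Plin4, Sult1a1 and Fkbp5) and 9 changed sign. The count of all genes called was 1775 with no filter and 1561 with limma on all genes with FPKM above 0, against 827, and these fits tested 37454 genes. Adjusted calls over all genes, 0 in the reported fit, were 16 in DESeq2, 14 with no filter and 2 with the replicate block. They were 17 without Ant-134 replicate 1, and 1 each without Ant-134 replicate 2, 3 or 4. Of the 10 genes, 2 were called in DESeq2 and 2 with no filter, 1 with the Y-linked covariate (Sult1a1), and 0 to 2 leaving out each mouse, where the shares over all genes were 2.74%, 4.74%, 4.75% and 3.14% to 4.97%. Of the other pathway genes, 3 were called in DESeq2 and 2 with the replicate block (Hsp90aa1 and Mt1, without Sdc4), and 0 to 5 leaving out each mouse, the highest without Scr replicate 4. The block leaves out Ant-134 replicate 5, which has no Scr partner. With it the log2 fold change of Ddit4 was -0.0051, and without that mouse and no block it was -0.010. The replicate numbers were not taken as pairs in the reported fit. Deviations of same-numbered mice correlated at -0.15 to 0.053, and those of differently numbered mice at -0.28 to 0.29. The paper calls the Scr mice littermates, but the labels give no litters, so pairing by litter was not tested. Leaving out each mouse gave -0.058 to 0.15 for Sgk1, -0.011 to 0.093 for Zbtb16, -0.033 to 0.13 for Ddit4 and -0.055 to 0.013 for Nr3c1. The lowest adjusted p of any of the 10 genes over these fits was 0.832. The cause of these changes was not tested. Counting error is largest for Plin4, at 93 to 197 counts per library.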
